A study of Mus musculus with 18 samples.

Results

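The genes described here are the chains of the mouse extracellular matrix and of the integrins that hold cells to it: the collagens, the laminins, the integrin alpha and beta chains, and the matrix genes Fn1, Fbln1, Dcn and Abi3bp. They were taken by symbol from the deposited count table, which gave 87 of its 26327 gene symbols: 44 collagen chains, 11 laminin chains, 18 integrin alpha chains, 9 integrin beta chains, the 4 matrix genes and Itgb3bp, a centromere protein whose symbol matches the pattern although it is no integrin chain. RNA was sequenced from cells sorted from the tracheas of naive mice in 18 libraries: 7 of brush cells (ChAT-eGFP positive), 7 of EpCAM+ epithelial cells and 4 of CD45+ haematopoietic cells. All 3 groups carry, on the B6.Cg background, the transgene Tg(RP23-268L19-EGFP)2Mik/J, a bacterial artificial chromosome in which Chat regulatory sequence drives eGFP. Tracheas were dissociated with dispase and papain, dead cells were gated out, and brush cells were sorted as CD45-, EpCAM+ and eGFP+. The EpCAM+ gate was CD45- and EpCAM+, which as worded does not leave out eGFP+ cells. Whether each library came from its own animals is not stated in the labels, and p-values therefore measure the spread between libraries, which may be technical.

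Brush cells, the tuft cells of the airway, are uncommon sensory cells of its epithelium. Epithelial cells rest on a basement membrane, a sheet of laminin trimers and type IV collagen trimers, and hold to it through integrins, each of which is a pair of 1 alpha and 1 beta chain. Basal cells of the trachea anchor to it with hemidesmosomes, in which integrin alpha 6 beta 4 and the transmembrane collagen Col17a1 meet laminin outside and keratin filaments inside. Leukocytes use other pairs, chiefly those with the beta 2 or the beta 7 chain, to hold to other cells and to matrix.

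Brush libraries held 838328 to 6031711 counts in total, EpCAM+ libraries 2442601 to 6087184 and CD45+ libraries 371652 to 7438791. Ribosomal RNA took 24% to 63.5% of the counts of a brush library, 12.2% to 34.1% of an EpCAM+ library and 20.7% to 43.4% of a CD45+ library. In each group 1 library was taken to stand apart from the rest, without a formal criterion: brush 4, EpCAM 5 and CD45 1. Brush 4 and CD45 1 had the lowest total and the highest ribosomal share of their groups. EpCAM 5 had the lowest ribosomal share of its group, but its total of 3886753 counts lay within the range of the others. The marker lists of brush cells summed to 8650 to 10200 CPM (read counts scaled to a common library size) in brush libraries, 8.07 to 33.7 CPM in EpCAM+ libraries and 0 to 57.8 CPM in CD45+ libraries. Those of basal cells summed to 52.4 to 203 CPM in brush libraries, 3840 to 6080 CPM in EpCAM+ libraries and 5.75 to 59.8 CPM in CD45+ libraries. Leukocyte markers summed to 14.2 to 37.2 CPM in brush libraries, 0 to 3.21 CPM in EpCAM+ libraries and 5380 to 7530 CPM in CD45+ libraries. Cartilage transcripts in EpCAM+ libraries are described below with type IX collagen. The library sizes behind CPM are scaled by edgeR's TMM factors. TPM, the authors' RSEM abundances scaled by transcript length, are used where the levels of different genes are compared.

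Summed over all 87 genes, read counts were lower in brush cells than in EpCAM+ cells, in part through 4 matrix genes chosen by name. Over all 87 genes the summed level was 828 to 1420 CPM in brush libraries (median 1150), against 1720 to 3660 CPM in EpCAM+ libraries (median 2370). These ranges do not overlap, but those of the summed TPM do, at 173 to 619 TPM in brush libraries and 427 to 735 TPM in EpCAM+ libraries. In CD45+ libraries the sum was 1140 to 3500 CPM (median 2040). The laminins summed to 124 to 195 CPM in brush libraries and 325 to 623 CPM in EpCAM+ libraries. Their summed TPM had a median of 30.8 in brush libraries and 63.0 in EpCAM+ libraries. The 4 matrix genes summed to 3.45 to 21.2 CPM in brush libraries and 714 to 2470 CPM in EpCAM+ libraries. These 4 were chosen by name with earlier results of these data known, and they are part of the sum over all 87 genes. The collagens summed to 115 to 237 CPM in brush libraries and 173 to 384 CPM in EpCAM+ libraries, which overlap, and their summed TPM had a median of 87.7 in brush libraries and 40.9 in EpCAM+ libraries. The integrins had higher medians in brush cells, with 824 CPM in brush libraries and 522 CPM in EpCAM+ libraries, and their ranges of 535 to 983 CPM in brush libraries and 449 to 704 CPM in EpCAM+ libraries overlap. The median of their summed TPM was 250 in brush libraries and 128 in EpCAM+ libraries. In these bulk libraries, fewer cells of a type and less RNA per cell cannot be told apart.

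Of the 87 genes, 51 had enough counts to be tested and 36 had not: 24 collagens, 7 integrin chains and 5 laminin chains. Col13a1 had no count in any library, and the highest total among the untested genes was 215 counts over the 18 libraries (Lamb1). Between brush and EpCAM+ cells edgeR's quasi-likelihood test called 8 of the 51 higher and 20 lower in brush cells, at an adjusted p below 0.05. Over all 13418 genes tested, 40.3% were called, 18.3% higher and 22.0% lower. The median log2 fold change was -0.84 over the 51 genes and -0.06 over all genes tested. By family, 3 collagens were higher and 6 lower of 20 tested, 2 integrin alpha chains were higher and 5 lower of 13, 3 integrin beta chains were higher and 1 lower of 7, and none of 6 laminins was higher and 4 were lower. All 4 matrix genes, which were chosen by name rather than by pattern, were lower. In a fit of these 2 groups alone, which had its own filter on low counts, 5 genes were called higher. Col22a1, Itgae and Itgb2 did not pass that filter. Some of the 51 genes, such as Itgax with 1 count in brush and 1 in EpCAM+ libraries, passed the main filter through the CD45+ libraries. Col22a1 and Col9a3 passed it through the brush libraries, which made a higher call likely in advance.

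**Figure D1:**
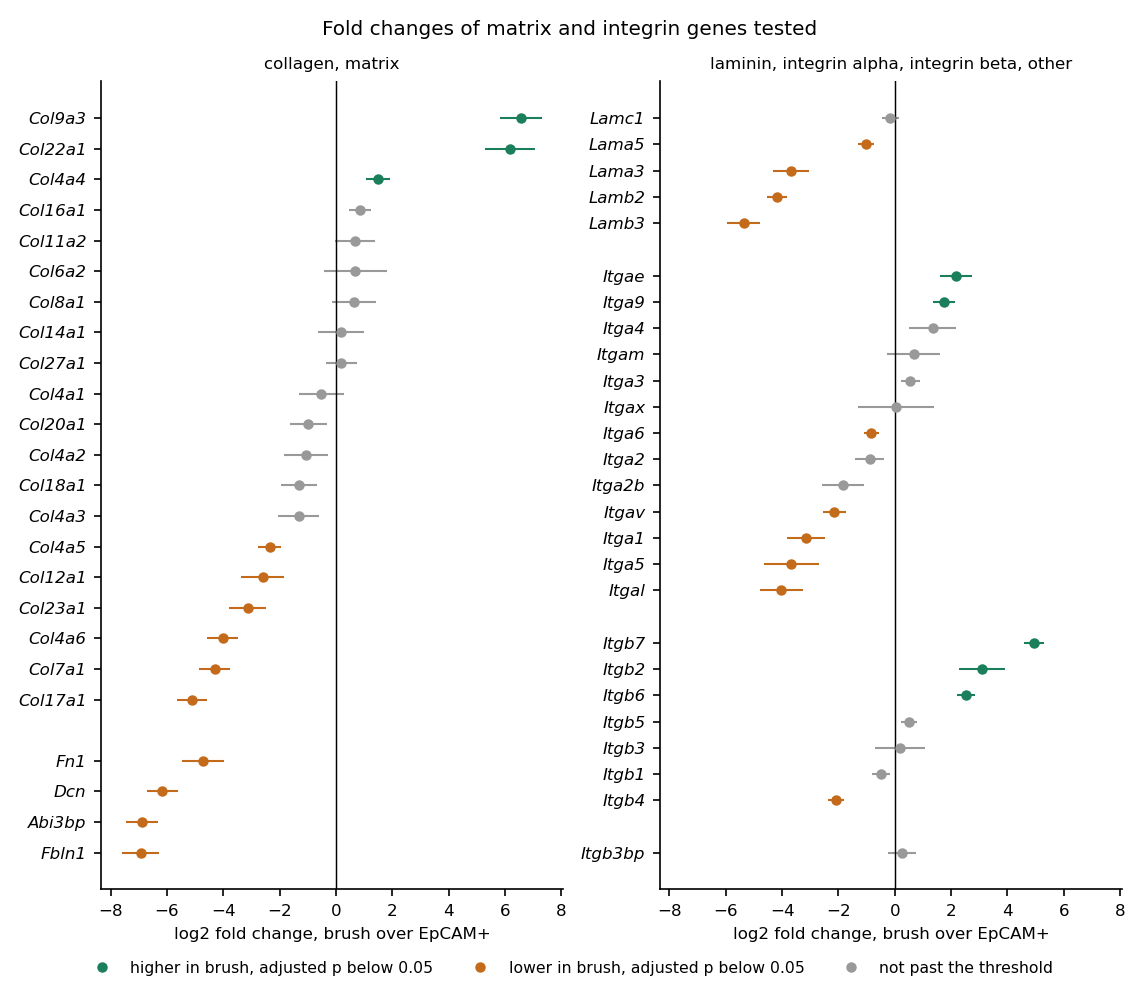
Log2 fold changes of brush over EpCAM+ cells for 50 of the genes tested, ordered within each family; points are edgeR estimates, bars are standard errors, and colour gives the call at an adjusted p below 0.05. Col9a3, Col22a1 and Itgb7 lie farthest to the right, and the 4 matrix genes, Lamb3 and Col17a1 farthest to the left.

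Promoter sequence is shown for a few genes described below, chosen after their values were seen, so that windows of genes that rose and fell can be read side by side. RefSeq promoter entries (GRCm38.p6) were matched for 61 of the 87 genes, and the 250 bases before each start were searched on both strands for the octamer ATGCAAAT, which POU factors such as the brush-cell regulator Pou2f3 bind, for the AP-1 motif TGANTCA, the TATA box TATAAA and the GC box GGGCGG. Of the genes called higher in brush than in EpCAM+ cells 4 had an entry, and none of these held any of the 4 motifs. Of those called lower 12 had an entry: none held the octamer or the AP-1 motif, Col17a1 held the TATA box, and 7 held the GC box. Over all 32851 RefSeq promoter windows of that length, 1.6% held the octamer, 6.75% the AP-1 motif, 12.4% the TATA box and 32.7% the GC box. A match is a description of letters, not of a bound site.

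The first 2 runs below belong to integrin chains that rose, the next 2 to collagens that fell, and the last is the interval between Col4a4, which rose, and Col4a3, which was not called. Each is given 5′ to 3′ on the strand of the gene named first and ends before that gene's first GENCODE exon, and capitals mark the TATA boxes of Col17a1 and the GC box of Col7a1.
Itgb7 (chr15:102231945-102232185, minus strand, GRCm38.p6): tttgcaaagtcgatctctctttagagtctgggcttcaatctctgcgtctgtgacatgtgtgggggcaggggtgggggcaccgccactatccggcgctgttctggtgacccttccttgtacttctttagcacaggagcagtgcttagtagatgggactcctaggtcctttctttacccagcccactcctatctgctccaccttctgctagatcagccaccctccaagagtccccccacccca
Itgb6 (chr2:60722644-60722853, minus strand, GRCm38.p6): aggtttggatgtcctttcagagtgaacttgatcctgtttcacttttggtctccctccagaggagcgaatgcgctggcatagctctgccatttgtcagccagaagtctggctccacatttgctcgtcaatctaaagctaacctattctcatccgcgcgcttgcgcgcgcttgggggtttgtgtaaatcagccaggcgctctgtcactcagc
Col17a1 (chr19:47692095-47692292, minus strand, GRCm38.p6): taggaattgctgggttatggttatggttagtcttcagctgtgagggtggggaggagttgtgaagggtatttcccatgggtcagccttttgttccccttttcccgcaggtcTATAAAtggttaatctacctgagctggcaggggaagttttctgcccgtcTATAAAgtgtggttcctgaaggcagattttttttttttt
Col7a1 (chr9:108953336-108953585, plus strand, GRCm38.p6): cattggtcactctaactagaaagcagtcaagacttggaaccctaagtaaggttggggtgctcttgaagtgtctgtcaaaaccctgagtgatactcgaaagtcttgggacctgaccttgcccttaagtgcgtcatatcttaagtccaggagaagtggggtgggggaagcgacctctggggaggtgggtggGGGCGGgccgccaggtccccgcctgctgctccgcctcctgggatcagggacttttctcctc
Col4a4 to Col4a3 (chr1:82586850-82586920, minus strand, GRCm38.p6): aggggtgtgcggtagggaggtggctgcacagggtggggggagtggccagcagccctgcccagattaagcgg
The interval between the 2 starts is 71 bases long and 69.0% of its bases are G or C, so Col4a4, which was called higher, and Col4a3, which was not called, share a short stretch of sequence between them.

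An integrin chain had the highest level in brush cells. Per transcript length, the most abundant of the 87 genes in brush cells was Itgb7, with 156 ± 76.0 TPM (SD, n = 7). It was followed by Col9a3 at 56.4 ± 26.9 TPM, Itga3 at 40.3 ± 22.3 TPM, Itgb6 at 35.1 ± 21.3 TPM and Itgb1 at 26.3 ± 11.6 TPM, and the spreads of these 4 overlap. In EpCAM+ cells the highest integrin levels were those of Itgb4 at 37.6 ± 16 TPM, Itgb1 at 27.4 ± 11.8 TPM, Itga6 at 21.3 ± 7.85 TPM and Itga3 at 20.5 ± 10.7 TPM (n = 7 each). In CD45+ cells they were those of Itgb2 at 185 ± 99.2 TPM, Itgb7 at 48.0 ± 14.1 TPM and Itga4 at 46.8 ± 27.1 TPM (n = 4 each).

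**Figure D2:**
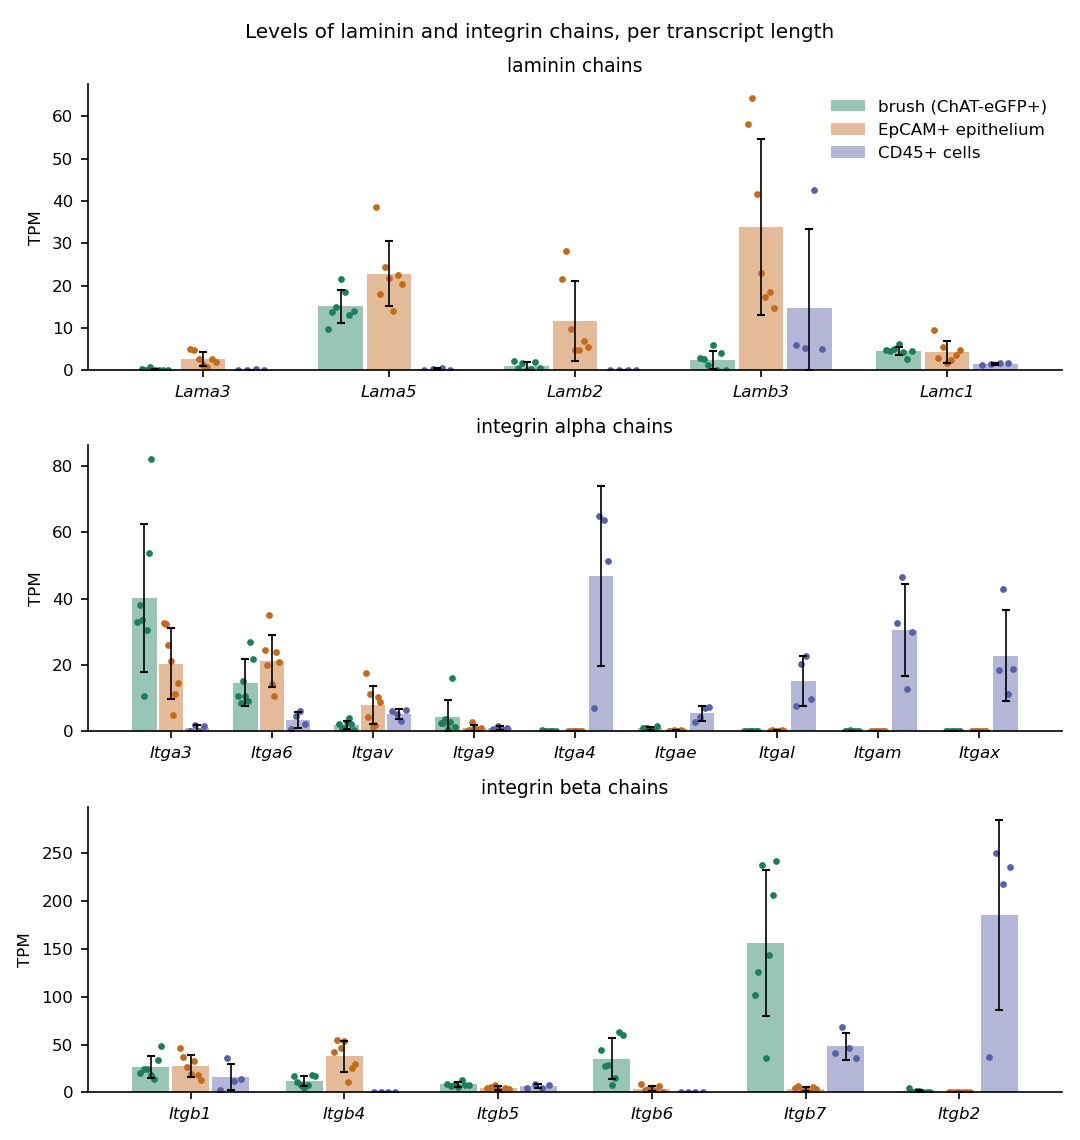
Levels of laminin, integrin alpha and integrin beta chains in TPM, which are per transcript length; bars are group means, error bars are SD drawn no lower than 0, and points are libraries (7 brush, 7 EpCAM+, 4 CD45+). Itgb7 is the tallest bar in brush cells at 156 TPM, while both of its alpha partners, Itga4 and Itgae, are below 1 TPM there.

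Itgb7, the beta chain that pairs with alpha 4 and alpha E and is best known from lymphocytes of the gut, lies on the minus strand of chromosome 15 (chr15:102215995-102231944, GRCm38, the assembly also called mm10). Its lowest, median and highest levels were 175, 362 and 529 CPM in brush libraries, against 5.94, 9.77 and 17.9 CPM in EpCAM+ libraries. The 4 CD45+ libraries had 207, 204, 118 and 130 CPM. Every brush library was above every EpCAM+ library, while the brush and CD45+ ranges overlap. Brush cells averaged 328 ± 127 CPM and EpCAM+ cells 10.6 ± 4.15 CPM (SD, n = 7 in both groups). The log2 fold change was 4.95 ± 0.36 (SE, edgeR adjusted p = 2.32e-10). CD45+ cells averaged 165 ± 47.3 CPM (n = 4). Brush cells exceeded them by 1.00 ± 0.37 on the log2 scale, with an edgeR adjusted p of 0.028. The call was lost in 5 alternatives, among them the edgeR fits without brush 3 (0.85, edgeR adjusted p = 0.0658), without CD45 3 (0.89, 0.0855), without CD45 4 (0.90, 0.0827) and with the RSEM expected counts (1.04, 0.0504). Over all alternatives its adjusted p lay between 0.00294 and 0.133.

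The alpha chains that beta 7 is known to pair with were near 0 in brush cells. Itga4, which also pairs with beta 1, had 15 counts over the 7 brush libraries and 5 over the 7 EpCAM+ libraries, and its CD45+ libraries had 118, 288, 169 and 221 CPM. Per length, brush cells held 156 TPM of Itgb7 against 0.09 ± 0.174 TPM of Itga4 and 0.914 ± 0.477 TPM of Itgae, whereas CD45+ cells held 48.0 TPM of Itgb7, 46.8 TPM of Itga4 and 5.42 ± 2.20 TPM of Itgae. Itgae, the alpha E chain, reached 1.89, 4.35 and 5.42 CPM (lowest, median and highest) in brush libraries, 0, 0.269 and 2.16 CPM in EpCAM+ libraries, and 25.9, 21.2, 29.2 and 41.7 CPM in CD45+ libraries. It rose in brush cells over EpCAM+ cells (2.17 ± 0.56, edgeR adjusted p = 0.00327), although the ranges overlap, and was lower in brush than in CD45+ cells (-2.90 ± 0.55, adjusted p = 0.000126). The gene Haspin, listed under its older symbol Gsg2, lies inside Itgae and had 15 counts in brush libraries and 42 in EpCAM+ libraries.

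Itgb2, the beta chain of the leukocyte integrins, was called higher in brush than in EpCAM+ cells at very low levels. It had 39 counts over the brush libraries and 4 over the EpCAM+ libraries, or 0.427, 0.813 and 5.66 CPM (lowest, median and highest) in brush libraries against 0, 0 and 0.637 CPM in EpCAM+ libraries, and the ranges overlap. The log2 fold change was 3.09 ± 0.82 (edgeR adjusted p = 0.00407), and 4.32 without EpCAM 2. The 4 CD45+ libraries had 138, 828, 526 and 872 CPM. Some leukocyte markers moved with it. Ptprc, the CD45 gene, was at 21 ± 6.82 CPM in brush cells, at 0.0385 in EpCAM+ cells and at 962 ± 368 CPM in CD45+ cells. Of the 6 leukocyte markers 4 were higher in brush than in EpCAM+ cells, and Cd52 and Coro1a were not called. Most of the brush sum of the 6 was Ptprc, since that sum averaged 27.4 CPM. The part of leukocyte transcripts in the Itgb2 and Itgae values was not tested. The 6 markers summed to at most 37.2 CPM in brush libraries and at least 5380 CPM in CD45+ libraries, beside the overlapping Itgb7 ranges given above, and their part in the Itgb7 values was not tested either.

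Itgb6, the epithelial beta chain whose only known partner is alpha v and which, in that pair, activates latent TGF-beta, lies on chromosome 2 (chr2:60598292-60722643, minus strand, GRCm38). It had 64.8, 101 and 155 CPM (lowest, median and highest) in brush libraries, against 6.74, 15.7 and 29.7 CPM in EpCAM+ libraries and 0, 1.25, 0.657 and 0.254 CPM in the 4 CD45+ libraries. The 3 groups do not overlap. The rise over EpCAM+ cells was 2.53 ± 0.33 on the log2 scale (edgeR adjusted p = 1.26e-06). Its partner Itgav fell: brush libraries had 2.26, 5.08 and 8.53 CPM and EpCAM+ libraries 5.25, 21.9 and 37.3 CPM, a log2 fold change of -2.15 ± 0.41 (edgeR adjusted p = 0.000163) with overlapping ranges. Per length, brush cells held 35.1 TPM of Itgb6 and 1.92 ± 1.25 TPM of Itgav, while EpCAM+ cells held 4.01 ± 2.91 TPM of Itgb6 and 7.94 ± 5.79 TPM of Itgav.

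Among the other chains that pair with alpha v, Itgb5 was at 22.8 ± 9.22 CPM in brush cells against 15.7 ± 3.22 in EpCAM+ cells (log2 fold change 0.51 ± 0.28, edgeR adjusted p = 0.157). Itgb8 was too low to be tested, with 9 counts in brush libraries and 81 in EpCAM+ libraries. Itgb1, the beta chain shared by the receptors of laminin, collagen and fibronectin, averaged 76.0 ± 19.9 CPM in brush cells against 107 ± 36.9 in EpCAM+ cells (-0.48 ± 0.32, edgeR adjusted p = 0.239). The CD45+ libraries had 31.6, 160, 44.9 and 76.4 CPM of Itgb1, and the 3 groups overlap.

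The alpha chains moved in both directions. Itga9, which pairs with beta 1 and binds tenascin-C and related ligands, had 7.5, 15.8 and 23.9 CPM (lowest, median and highest) in brush libraries and 1.60, 4.31 and 6.69 CPM in EpCAM+ libraries, which do not overlap (1.75 ± 0.38, edgeR adjusted p = 0.000619). The matrix protein Tnc, named after its value was seen, was also higher: 146 ± 78.2 CPM in brush cells against 13.3 ± 8.70 in EpCAM+ cells, a log2 fold change of 3.49 ± 0.50 (edgeR adjusted p = 4.67e-06). It was 1 of 2 genes that rose among the 22 other matrix ligands tested, of which 14 fell. Itga3, the laminin receptor chain, had 84.8, 140 and 222 CPM in brush libraries and 68.6, 84.4 and 150 CPM in EpCAM+ libraries, a difference of 0.55 ± 0.34 that did not pass (edgeR adjusted p = 0.199). Itga6 was lower, at 30.8 ± 10.5 CPM in brush cells against 55.2 ± 10.5 in EpCAM+ cells (-0.84 ± 0.27, edgeR adjusted p = 0.0151). Itga1, a collagen receptor chain, had 18 counts in brush libraries and 157 in EpCAM+ libraries (-3.16 ± 0.67, edgeR adjusted p = 0.000545, and -3.84 without brush 1). The other collagen-binding chain tested, Itga2, was not called, and Itga10 was too low to be tested, with 25 counts in brush libraries and 30 in EpCAM+ libraries.

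**Figure D3:**
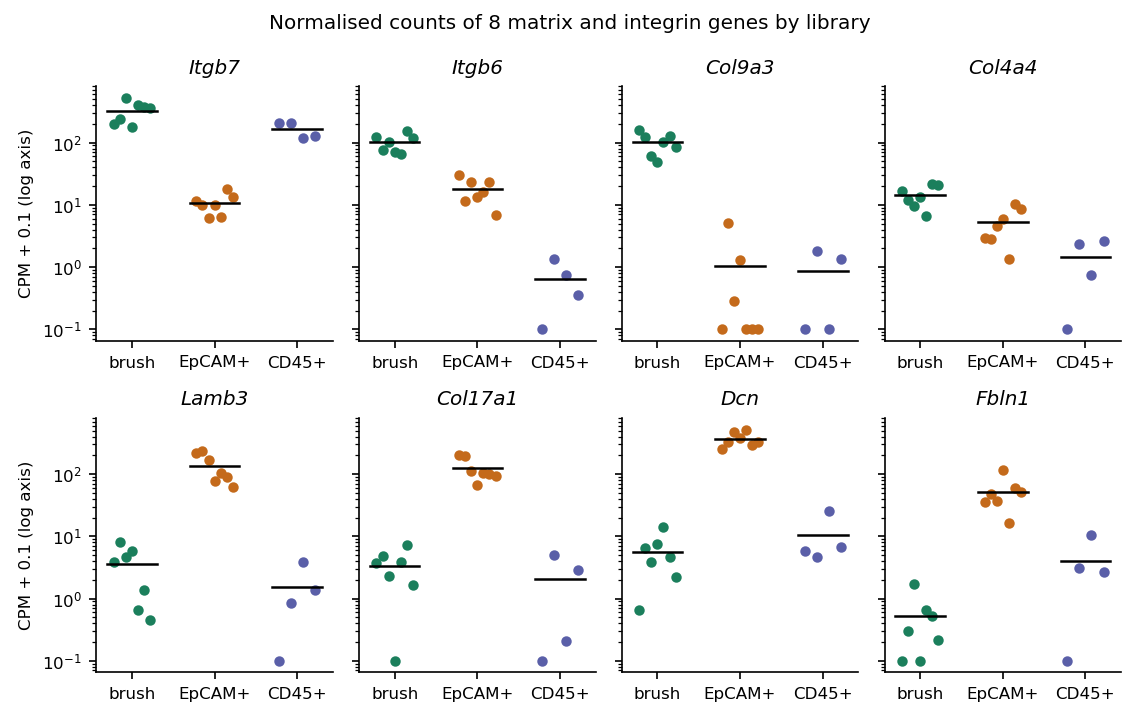
Normalised counts of 8 of the genes in each library, as CPM plus 0.1 on a log axis; points are libraries and black lines are group means (7 brush, 7 EpCAM+, 4 CD45+). In brush cells Itgb7, Itgb6, Col9a3 and Col4a4 are above the EpCAM+ means, and Lamb3, Col17a1, Dcn and Fbln1 are below them.

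Of the 3 collagens that rose, Col9a3 had the largest fold change. It encodes the alpha 3 chain of type IX collagen, a trimer of alpha 1, alpha 2 and alpha 3 chains that is known from cartilage, where it coats type II collagen fibrils. The gene lies on the plus strand of chromosome 2 (chr2:180597790-180622189, GRCm38). It had 49.0, 104 and 158 CPM (lowest, median and highest) in brush libraries, against 0, 0 and 5.1 CPM in EpCAM+ libraries and 0, 1.74, 0 and 1.27 CPM in the CD45+ libraries. Every brush library was far above every other library. The log2 fold change over EpCAM+ cells was 6.57 ± 0.75 (edgeR adjusted p = 2.04e-07), and 8.09 without EpCAM 2. Over CD45+ cells it was 6.90 ± 1.05 (edgeR adjusted p = 8.08e-06), 7.74 without CD45 2 and 6.20 without CD45 3. Tcfl5, which overlaps Col9a3 in the annotation, had 2 counts in brush libraries.

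The other chains of the type IX trimer were all but absent from brush cells. Col9a1 had 2 counts over the 7 brush libraries, Col9a2 had 5 and Col2a1, the type II collagen chain, had 1. Per length, Col9a3 had 13.4 to 84.4 TPM in brush libraries, while Col9a2 had at most 0.27 TPM, Col2a1 at most 0.04 TPM, and Col9a1 was listed at 0 TPM. In EpCAM+ libraries Col9a1 had 16 counts, Col9a2 had 10 and Col2a1 had 75, all of the last in EpCAM 2. These counts do not allow a test of the 3 genes. Sox9, the transcription factor that switches on the type II and type IX collagen genes in cartilage, was high in brush cells, at 335 ± 58.6 CPM, against 7.37 ± 3.62 CPM in EpCAM+ cells (5.52 ± 0.36, edgeR adjusted p = 3.69e-10), and had no count in CD45+ libraries. The list of 8 cartilage markers summed to 262 to 412 CPM in brush libraries, against 37.3 to 202 CPM in EpCAM+ libraries. In brush libraries Sox9 alone had 256 to 408 CPM, Chad, a cartilage matrix protein, had 0 to 3.77 CPM, and the other 6 genes together had 0 to 5.42 CPM.

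In EpCAM+ libraries the cartilage markers did not move as a block. Chad had 25.7 CPM in EpCAM 1, 58.2 in EpCAM 2, 30.3 in EpCAM 3, 67.6 in EpCAM 4, 196 in EpCAM 5, 46.7 in EpCAM 6 and 40.4 in EpCAM 7, and through it the whole list was highest in EpCAM 5, at 202 CPM, with 108 CPM in EpCAM 2. Other cartilage genes were high in EpCAM 2. That library had 15.9 CPM of Col2a1, 19.5 CPM of Col10a1, which marks hypertrophic cartilage, 30.2 CPM of Comp and 13.8 CPM of Ibsp, and its 6 listed markers other than Sox9 and Chad summed to 41.0 CPM, against at most 2.7 CPM in each of the other EpCAM+ libraries. The part of these transcripts in the Col9a3 values was not tested. It was also the EpCAM+ library with the highest Col9a3, at 5.1 CPM. Brush libraries had 0 to 5.66 CPM of Col10a1, the highest in brush 4, and at most 0.542 CPM of Comp.

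**Figure D4:**
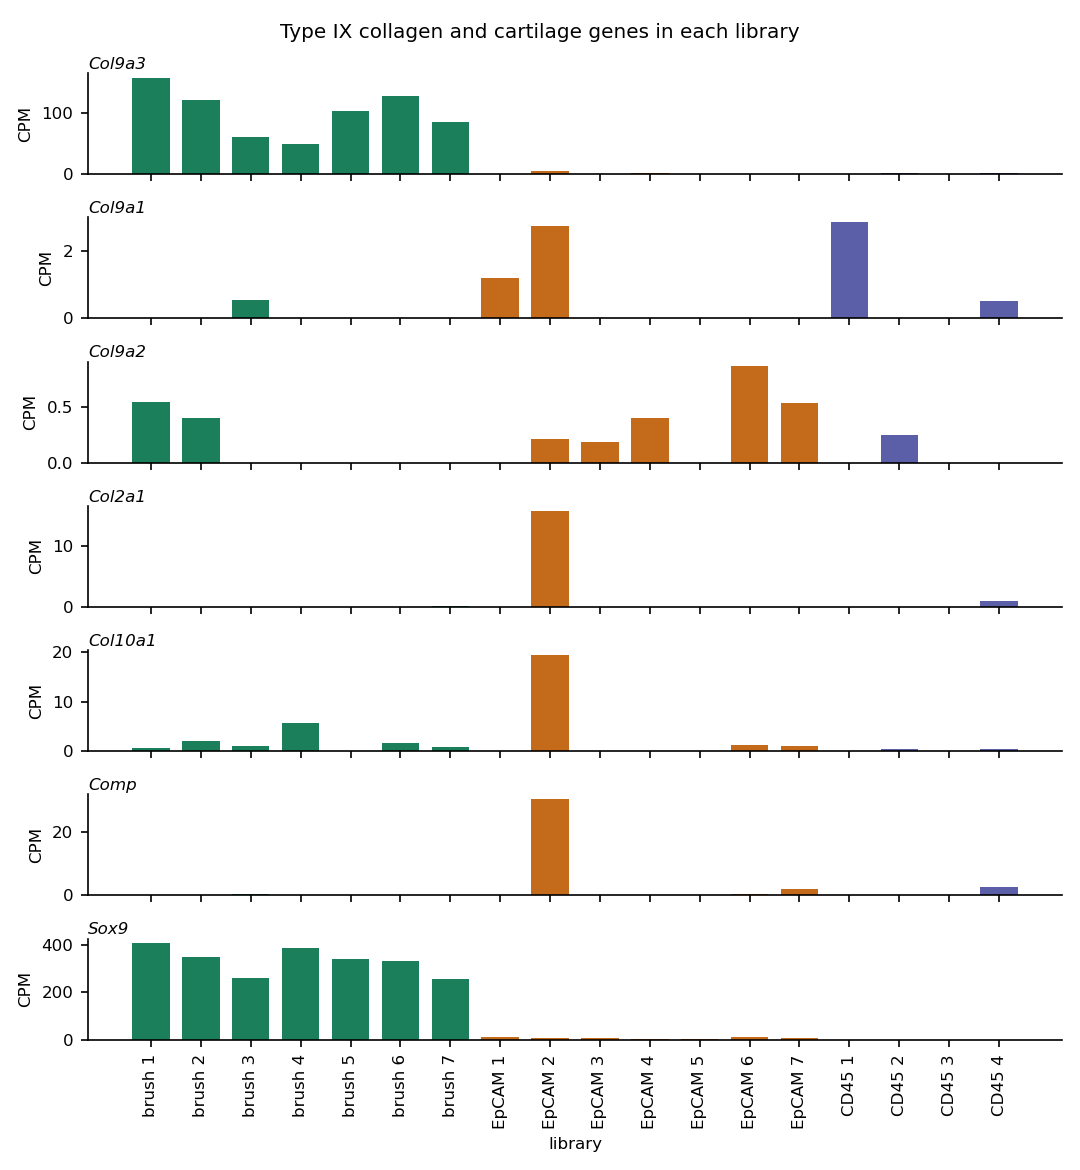
Normalised counts in each library (bars, CPM, each panel with its own axis from 0) of the type IX collagen chains Col9a3, Col9a1 and Col9a2, the cartilage genes Col2a1, Col10a1 and Comp, and Sox9. Col9a3 and Sox9 are high in all 7 brush libraries, while Col2a1, Col10a1 and Comp are high in EpCAM 2.

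Among the other collagens of this fibril-associated class, Col22a1, which is known from tissue junctions, had 148 counts in brush libraries, 1 in EpCAM+ libraries and none in CD45+ libraries. The ratio of its count rates, brush over EpCAM+, was 152 (95% interval from counting 26.9 to 6050), and it was at least 29.0-fold higher in brush than in CD45+ cells when the CD45+ group is set to a floor of 3 counts. Brush libraries ranged from 0 to 9.48 CPM and so overlap both other groups (edgeR adjusted p = 9.53e-06 against EpCAM+ cells). Col16a1 was at 14.2 ± 4.52 CPM in brush cells against 7.87 ± 4.13 in EpCAM+ cells and was not called (0.85 ± 0.39, edgeR adjusted p = 0.0839), but passed with limma-voom (adjusted p = 0.036) and without EpCAM 2 (edgeR adjusted p = 0.0409), within a range of 0.036 to 0.223 over all alternatives. Col14a1 had 13 counts over the brush libraries and 10 over the EpCAM+ libraries, against 54.6, 35.4, 13.9 and 33.5 CPM in the 4 CD45+ libraries. Fibrillar collagens were scarce everywhere: their 11 genes together summed to 3.24 to 13.2 CPM in brush libraries, 0.802 to 29.1 CPM in EpCAM+ libraries and 5.98 to 18 CPM in CD45+ libraries. The highest single value of Col3a1, a chain of loose connective tissue, was 10.4 CPM in EpCAM 3.

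The type IV collagen chains of the basement membrane moved apart. Col4a4 and Col4a3 lie head to head on chromosome 1 (Col4a4 at chr1:82448423-82586849 on the minus strand, Col4a3 at chr1:82586921-82722059 on the plus strand, GRCm38), and their products join that of Col4a5 in a trimer found in the kidney and lung. Col4a4 rose, with 6.53, 13.2 and 21.3 CPM (lowest, median and highest) in brush libraries and 1.23, 4.46 and 10.4 CPM in EpCAM+ libraries (1.48 ± 0.43, edgeR adjusted p = 0.00882), and the ranges overlap. The CD45+ libraries had 0, 2.24, 0.657 and 2.54 CPM of it. Col4a3 had 0, 0.271 and 6.19 CPM in brush libraries and 2.83, 5.19 and 8.09 CPM in EpCAM+ libraries (-1.32 ± 0.73, edgeR adjusted p = 0.16), and limma-voom called it lower (-2.09, adjusted p = 0.0173). Its adjusted p ranged to 0.251 over the alternatives. The brush mean of Col4a3, 1.90 CPM, was 1.19 CPM without brush 6.

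Col4a5 and Col4a6, which lie head to head on the X chromosome, both fell. Col4a5 had 0, 3.45 and 5.69 CPM (lowest, median and highest) in brush libraries and 10.9, 17 and 28.1 CPM in EpCAM+ libraries (-2.36 ± 0.42, edgeR adjusted p = 8.17e-05). Col4a6 had 0, 0.542 and 4.17 CPM in brush libraries and 11.6, 24.5 and 29.6 CPM in EpCAM+ libraries (-4.02 ± 0.55, edgeR adjusted p = 2.66e-06, and -4.87 without brush 1). For both genes the groups do not overlap. The widely used chains Col4a1 and Col4a2 were not called.

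The chains of the hemidesmosome and of the anchoring fibril below it were lower in brush cells. Col17a1, the transmembrane collagen of the hemidesmosome (chr19:47646344-47692094, minus strand, GRCm38), had 0, 3.63 and 7.25 CPM (lowest, median and highest) in brush libraries and 67.6, 105 and 200 CPM in EpCAM+ libraries. Col7a1, which builds anchoring fibrils (chr9:108953586-108984875, plus strand, GRCm38), had 0.181, 0.544 and 6.19 CPM in brush libraries and 26.2, 34.9 and 45.3 CPM in EpCAM+ libraries. Itgb4, the hemidesmosomal integrin chain, had 39.6, 49.6 and 64.4 CPM in brush libraries and 152, 215 and 263 CPM in EpCAM+ libraries. No brush library reached the lowest EpCAM+ library for any of the 3 genes. The log2 fold changes were -5.10 ± 0.53 for Col17a1 (edgeR adjusted p = 5.88e-08), -4.30 ± 0.55 for Col7a1 (adjusted p = 1.09e-06, and -5.33 without brush 6) and -2.10 ± 0.28 for Itgb4 (adjusted p = 1.84e-06). Itgb4 still differed between brush and CD45+ cells: the CD45+ libraries had 0, 3.24, 0.986 and 0.762 CPM, and the log2 fold change was 5.01 ± 0.45 (edgeR adjusted p = 4.03e-09, and 5.83 without CD45 2).

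All 5 other hemidesmosome genes listed were lower too. Krt5, a basal-cell keratin, reached 17 ± 13.1 CPM in brush cells against 931 ± 304 in EpCAM+ cells (-5.82 ± 0.61, edgeR adjusted p = 5.47e-08). Its partner Krt14 reached 23.2 ± 22 CPM in brush cells against 460 ± 246 in EpCAM+ cells (-4.32 ± 0.75). The linker proteins Dst, at -1.07 ± 0.28, and Plec, at -1.0 ± 0.24, changed less, as did the tetraspanin Cd151. Of the 7 basal-cell markers listed, 6 were lower in brush cells, and their sums are given above. Krt5 and Krt14 stand in both lists, so the lists are not independent. What part basal cells have in the lower hemidesmosome and laminin values was not tested.

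Laminin transcripts differed by chain. Lama3 and Lamb3 encode chains of the laminin of the hemidesmosome, and both fell. Lamb3 (chr1:193207699-193343878, plus strand, GRCm38) had 0.357, 3.81 and 7.90 CPM (lowest, median and highest) in brush libraries and 61.7, 105 and 237 CPM in EpCAM+ libraries (-5.36 ± 0.58, edgeR adjusted p = 9.79e-08). Lama3 had 0, 0.64 and 4.61 CPM in brush libraries and 11.7, 18.8 and 27.8 CPM in EpCAM+ libraries (-3.69 ± 0.63, edgeR adjusted p = 4.64e-05). For neither gene do these groups overlap. Per length, brush cells held 2.45 ± 2.12 TPM of Lamb3 and 0.161 ± 0.279 TPM of Lama3, while EpCAM+ cells held 33.9 ± 20.7 TPM of Lamb3 and 2.75 ± 1.61 TPM of Lama3.

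The broad laminin chain Lama5, the alpha chain of the common epithelial laminins, was the most abundant laminin of brush cells at 15.2 ± 3.89 TPM. It had 73.6, 96.9 and 115 CPM (lowest, median and highest) in brush libraries and 168, 184 and 231 CPM in EpCAM+ libraries, a smaller fall (-1.01 ± 0.28, edgeR adjusted p = 0.00574) without overlap. Lamb2 fell more, with 0, 3.25 and 4.89 CPM in brush libraries and 31.4, 57.2 and 98.0 CPM in EpCAM+ libraries (-4.18 ± 0.37, edgeR adjusted p = 4.24e-09). Lamb1, the other beta chain that joins Lama5, was too low to be tested: it had 144 counts in brush libraries and 53 in EpCAM+ libraries, and brush 7 held the highest level at 12.6 CPM, without which the brush mean of 3.42 CPM is 1.89 CPM. Lamc1, the common gamma chain, had 12.2 ± 2.98 CPM in brush cells against 14.1 ± 6.0 in EpCAM+ cells (-0.16 ± 0.30, edgeR adjusted p = 0.711). The beta chains summed to 3.27 to 14.9 CPM in brush libraries, against 96.2 to 335 CPM in EpCAM+ libraries.

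The 4 matrix genes all fell. They were chosen by name with earlier results of these data known and are no gene family, so their joint fall is not a result about matrix genes. Dcn, which encodes the collagen-binding proteoglycan decorin, had 0.544, 4.48 and 14.2 CPM (lowest, median and highest) in brush libraries, against 251, 328 and 519 CPM in EpCAM+ libraries and 5.75, 4.49, 25 and 6.6 CPM in the CD45+ libraries. Abi3bp, a matrix-associated protein, had 0.833, 5.07 and 9.79 CPM in brush libraries, against 352, 399 and 1910 CPM in EpCAM+ libraries. Fbln1, the matrix glycoprotein fibulin-1, had 0, 0.203 and 1.63 CPM in brush libraries, against 16.4, 48.4 and 116 CPM in EpCAM+ libraries. None of these brush and EpCAM+ ranges overlap. The log2 fold changes were -6.16 ± 0.56 for Dcn (edgeR adjusted p = 7.06e-09), -6.88 ± 0.57 for Abi3bp (adjusted p = 1.76e-09) and -6.93 ± 0.66 for Fbln1 (adjusted p = 1.38e-08). Without EpCAM 5, the mean of Abi3bp in EpCAM+ cells was 380 CPM instead of 598 CPM and its log2 fold change -6.23, and without brush 3 that of Fbln1 was -7.82.

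Fn1, which encodes fibronectin, had 0 to 3.79 CPM in brush libraries with a median of 0, against 6.33, 20.8 and 26.9 CPM (lowest, median and highest) in EpCAM+ libraries. The 4 CD45+ libraries had 158, 1120, 219 and 545 CPM. The 3 groups do not overlap. The log2 fold change of brush cells was -4.72 ± 0.74 over EpCAM+ cells (edgeR adjusted p = 1.61e-05, and -6.70 without brush 3) and -9.55 ± 0.85 over CD45+ cells (edgeR adjusted p = 3.08e-09). Without brush 3 the second was -11.50 and without CD45 2 it was -8.83.

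Dcn and Fbln1 are best known from fibroblasts, so the fibroblast list is given beside them. Of its 8 genes, 1 was tested, Pdgfra, which was higher in brush cells at 7.52 ± 4.45 CPM against 0.0853 CPM in EpCAM+ cells. The list summed to 4.53 to 17 CPM in brush libraries, 0 to 6.48 CPM in EpCAM+ libraries and 10.7 to 138 CPM in CD45+ libraries. Most of the brush sum was Pdgfra, since the whole list averaged 8.47 CPM there. In EpCAM+ libraries Dcn averaged 367 ± 96.3 CPM and the list of 8 genes 1.76 ± 2.19 CPM. Of the listed genes Lum had 4 counts in EpCAM+ libraries, Dpt 15 and Pdgfrb none. Which cells the Dcn and Fbln1 transcripts came from was not tested.

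**Figure D5:**
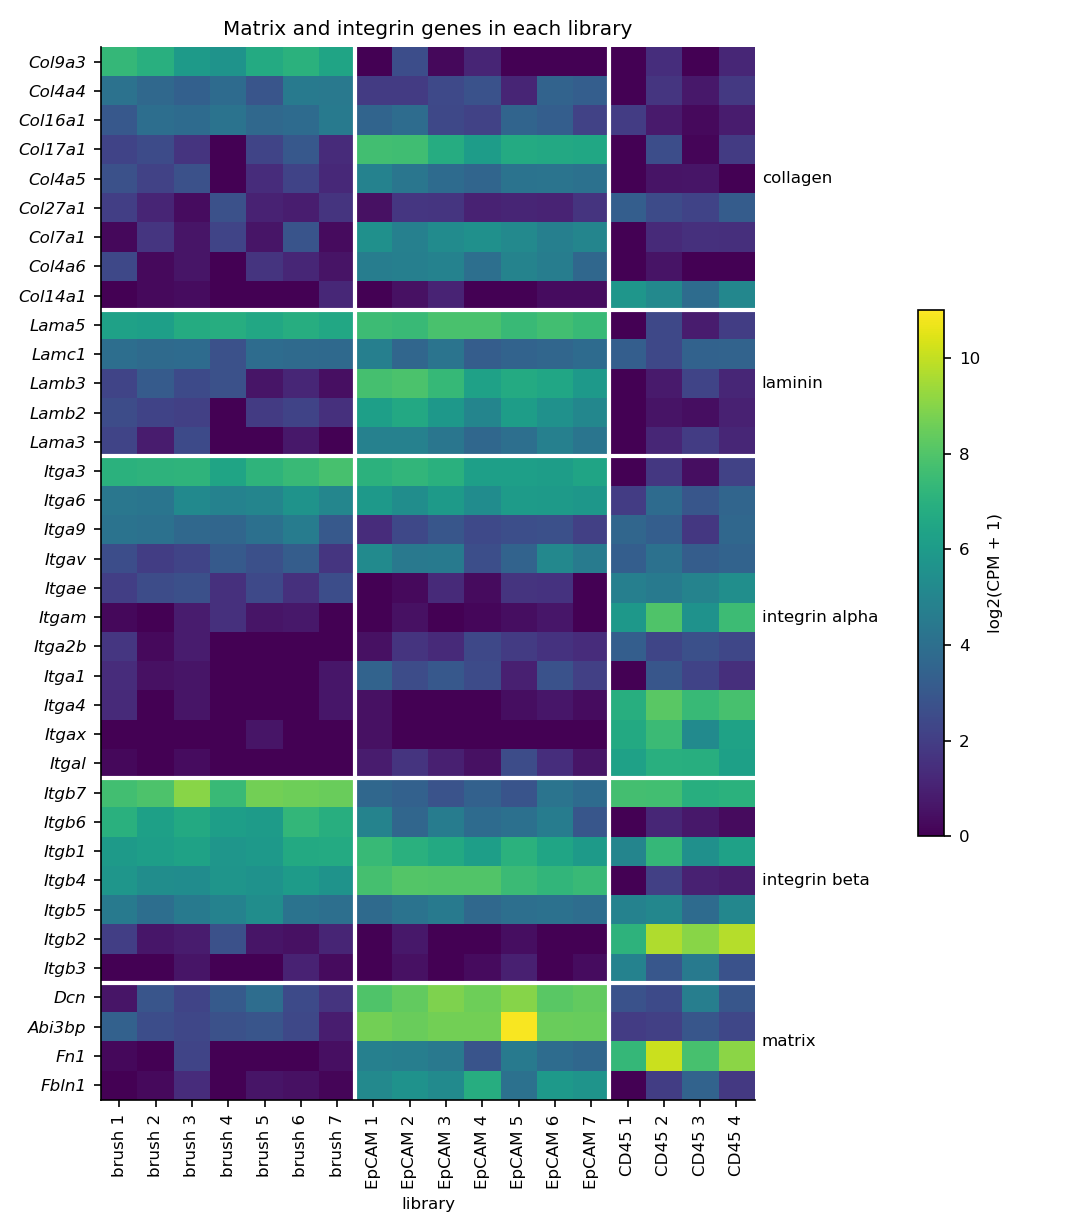
Levels of 36 genes chosen by the naming rule in each of the 18 libraries, as log2 of CPM plus 1; rows are genes grouped by family and columns are libraries, with brush libraries on the left, then EpCAM+ and CD45+ libraries. The matrix genes Dcn, Abi3bp and Fbln1, with Col17a1, Lamb3 and Itgb4, mark the EpCAM+ block, and Col9a3 and Itgb6 the brush block. The leukocyte integrin chains and the matrix gene Fn1 mark the CD45+ block, with Itgb7 high in both the brush and the CD45+ block.

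Against CD45+ cells, 16 of the 51 genes were called higher and 16 lower in brush cells. Over all genes tested 45.8% were called, 23.4% higher and 22.4% lower, and the median log2 fold change was 0.13 over the 51 genes and 0.05 over all. The comparison shares the brush libraries with the one above. Of the 9 leukocyte and platelet chains tested, 8 were lower in brush cells and 1, Itgb7, was higher. The others called lower were Col14a1, Col23a1, Col27a1, Fbln1, Fn1, Itga1, Itga5 and Itgav. Several of the 9 chains had few counts outside CD45+ libraries, such as Itgax with 1 in brush, 1 in EpCAM+ and 1405 in CD45+ libraries. Such chains passed the filter through the CD45+ libraries, which made a lower call likely in advance. The number of chains called lower is therefore no result. Itgam, the alpha chain of the myeloid integrin Mac-1, averaged 0.581 ± 0.658 CPM in brush cells, against 57.5, 247, 47.6 and 184 CPM in the CD45+ libraries. Itgal, the alpha chain of the lymphocyte integrin LFA-1, had 2 counts in brush libraries and 1884 in CD45+ libraries, which is 1600 times lower in brush cells by count rate (95% interval from counting 442 to 13200). Itgax, an alpha chain of dendritic cells and macrophages, had 1 count in brush libraries and 103, 178, 37.8 and 79.0 CPM in the CD45+ libraries.

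The platelet pair Itga2b and Itgb3 was low in brush cells as well. Itgb3 had 9 counts in brush libraries and 28.7, 6.98, 22.2 and 5.84 CPM in the CD45+ libraries. Itga2b had 17 counts in brush libraries and 8.62, 3.99, 5.37 and 4.06 CPM in the CD45+ libraries. The platelet marker Pf4 stood beside them at 0.136 CPM in brush cells and 612 ± 547 CPM in CD45+ cells. The whole list of 6 platelet markers, Pf4 included, summed to 619 ± 552 CPM in CD45+ cells, where Gp1bb and Gp6 had no count. Pf4 was the only 1 of the 6 with enough counts to be tested. The part of platelet transcripts in the Itga2b and Itgb3 values was not tested. Between brush and EpCAM+ cells Itga2b was not called (-1.85 ± 0.74, edgeR adjusted p = 0.0506), but it passed as lower in 5 alternatives, among them DESeq2 (adjusted p = 0.0352), limma-voom (adjusted p = 0.00442) and without brush 1 (-3.38, edgeR adjusted p = 0.00148) or EpCAM 1 (edgeR adjusted p = 0.0359). Over all alternatives the adjusted p ranged to 0.116.

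On the higher side stood the chains of epithelium. Itga3 had at least 84.8 CPM in every brush library, against 0, 2.49, 0.329 and 3.56 CPM in the CD45+ libraries. Lama5 had at least 73.6 CPM in every brush library, against 0, 4.24, 0.767 and 3.05 CPM in the CD45+ libraries. None of these ranges overlap. Dcn, by contrast, was not called against CD45+ cells (-1.15, edgeR adjusted p = 0.0988), with adjusted p from 0.0189 to 0.922 over the alternatives. Lamb3 was not called by the count table (0.71 ± 0.70, edgeR adjusted p = 0.432), and with the RSEM expected counts its direction turned round (-2.50, edgeR adjusted p = 0.00296); over all alternatives the adjusted p ranged to 0.855. RSEM gave it 2.45 TPM in brush cells and 14.7 ± 18.6 TPM in CD45+ cells, while the count table has 3.45 ± 2.85 CPM in brush cells and 1.46 ± 1.66 CPM in CD45+ cells. The gene G0s2 lies within the bounds of Lamb3 on the opposite strand, has no count in the count table in any library, and has 0 to 1.03 TPM in brush libraries, 0 to 2.01 TPM in EpCAM+ libraries and 24.2 to 119 TPM in CD45+ libraries. Whether this overlap bears on the Lamb3 values was not tested.

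The genes called higher in brush cells than in each of the other groups were 5 of the 51: Col22a1, Col4a4, Col9a3, Itgb6 and Itgb7. Over all genes tested 11.3% were. Col22a1 and Col9a3 had few counts outside brush libraries and passed the filter through these, which made a higher call likely in advance. The number of genes called higher in both is therefore no result. Those called lower than in each were 7 of the 51: Col23a1, Itga1, Itga5, Itgal, Itgav, Fbln1 and Fn1. Over all genes tested 9.82% were. The call of Itgb7 against CD45+ cells was lost in 5 alternatives, as given above. For Itgav the call against CD45+ cells was weak (-1.21 ± 0.47, edgeR adjusted p = 0.0384) and was lost with DESeq2 (adjusted p = 0.0511), with RLE scaling (edgeR adjusted p = 0.0501), and in the fits that left out brush 1, brush 2, brush 3, brush 7, CD45 2 or CD45 4 (edgeR adjusted p from 0.0551 to 0.165). Its lowest adjusted p over the alternatives was 0.0127. That of Itga1 against CD45+ cells (-2.60 ± 0.74, edgeR adjusted p = 0.00586) was lost without CD45 2 (-2.02, edgeR adjusted p = 0.0501) and was -3.24 without brush 1, with adjusted p from 0.00158 to 0.0501 over the alternatives.

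Between EpCAM+ and CD45+ cells, 22 of the 51 genes were called higher and 12 lower in EpCAM+ cells, where 40.5% of all genes tested were called, 22.5% higher and 18.1% lower. This comparison shares its libraries with those above. The median log2 fold change was 0.93 over the 51 genes and 0.08 over all. Of the laminins 5 of 6 were higher in EpCAM+ cells, and of the 9 leukocyte and platelet chains 8 were lower. The count of these chains carries the same limit as against brush cells. Of the collagens 10 were higher, and 6 without CD45 3. Itgb7 was among the 8 chains called lower in EpCAM+ than in CD45+ cells (-3.95 ± 0.36, edgeR adjusted p = 5.58e-09). In brush cells it was called higher than in CD45+ cells, but weakly (1.00 ± 0.37, edgeR adjusted p = 0.028). Those ranges overlap, and that call was lost in 5 alternatives.

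Genes that work with these chains were followed through 8 lists, here between brush and EpCAM+ cells. Over all genes tested in this comparison, 18.3% were called higher and 22.0% lower. The genes that rose in the basement membrane, collagen processing and other matrix receptor lists, and both counts for ligands on other cells, were near these shares. Such counts are no result about a list. Of 11 tested partners in the basement membrane, 2 rose and 6 fell. Smoc1, a calcium-binding basement membrane protein, had 53.6 ± 10.6 CPM in brush cells and 2 counts over the EpCAM+ libraries. Fras1, which anchors epithelium to the basement membrane, rose as well (2.64 ± 0.42, edgeR adjusted p = 1.81e-05), with 55.7 ± 16.7 CPM in brush cells against 9.11 ± 4.38 in EpCAM+ cells. Smoc2, the relative of Smoc1, fell (-2.23 ± 0.51, edgeR adjusted p = 0.00111), and Sparc, a collagen-binding protein of the same family, fell with it (-4.29 ± 0.55, edgeR adjusted p = 1.10e-06).

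Of the 18 tested genes of collagen processing, 4 rose and 10 fell. P3h3, a prolyl 3-hydroxylase family member, rose to 42.1 ± 10.4 CPM in brush cells against 1.55 ± 0.599 in EpCAM+ cells (4.75 ± 0.39, edgeR adjusted p = 1.45e-09). Its relative P3h1 and the lysyl hydroxylases Plod1 and Plod3 also rose. Pcolce, which enhances procollagen cleavage, fell to 4.32 ± 3.25 CPM in brush cells against 177 ± 52.9 in EpCAM+ cells (-5.34 ± 0.45, edgeR adjusted p = 2.36e-09). The collagen chaperone Fkbp10 (-5.14 ± 0.70, and -6.15 without brush 5) and the crosslinking enzyme Loxl4 (-4.03 ± 0.52) fell too.

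Of the 26 tested genes that link integrins to the cytoskeleton, none rose and 15 fell. Fermt1, the epithelial kindlin, had 0.749 ± 0.565 CPM in brush cells against 70.1 ± 66.2 in EpCAM+ cells (-6.22 ± 0.55, edgeR adjusted p = 4.72e-09, and -5.59 without EpCAM 5). Fermt3, the kindlin of blood cells, had 1.36 ± 0.762 CPM in brush cells, against 13.3 ± 8.77 in EpCAM+ cells and 270 ± 138 in CD45+ cells. Tns4, a tensin, fell by 4.21 on the log2 scale, and Kank2, a focal adhesion protein, fell by 2.66. The talin gene Tln1 and the third kindlin, Fermt2, were not called.

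Of 12 other matrix receptors tested, 3 rose and 7 fell. Sdc1, the epithelial syndecan, had 14.7 ± 7.24 CPM in brush cells against 416 ± 177 in EpCAM+ cells (-4.77 ± 0.51, edgeR adjusted p = 9.22e-08). Bcam, a receptor for Lama5-containing laminins, had 21.6 ± 11 CPM in brush cells against 353 ± 120 in EpCAM+ cells (-4.0 ± 0.38, edgeR adjusted p = 1.48e-08). Lrp1, an endocytic receptor of matrix proteins, fell by 4.39 on the log2 scale, and Cd44, the hyaluronan receptor, fell by 2.33. The 3 that rose were Cd36, Cd47 and Lair1, a collagen receptor of leukocytes.

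Ligands that integrins meet on other cells gave 1 gene that rose and 1 that fell of 5 tested. Icam1, the ligand of LFA-1, fell to 13.2 ± 13.3 CPM in brush cells against 643 ± 140 in EpCAM+ cells (-5.56 ± 0.60, edgeR adjusted p = 9.82e-08, and -6.19 without brush 1). Cdh1, the epithelial cadherin that alpha E beta 7 binds, averaged 369 ± 157 CPM in brush cells against 166 ± 105 in EpCAM+ cells (1.15 ± 0.39, edgeR adjusted p = 0.0222), a call lost without brush 7 (edgeR adjusted p = 0.057) or EpCAM 4 (edgeR adjusted p = 0.0517) and with a lowest adjusted p of 0.00475 over the alternatives. Madcam1, the gut ligand of alpha 4 beta 7, had no count in brush libraries.

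Other matrix ligands mostly fell: of 22 tested, 2 rose, Tnc and Thbs2, and 14 fell. Cyr61, a matrix-associated signalling protein, had 8.15 ± 5.94 CPM in brush cells against 737 ± 309 in EpCAM+ cells (log2 fold change -6.43 ± 0.55). Its relative Ctgf had 2.90 ± 2.91 CPM in brush cells against 267 ± 183 in EpCAM+ cells (log2 fold change -6.32 ± 0.70). Ltbp4, a latent TGF-beta binding protein, fell by 5.62 on the log2 scale, and Ecm1 changed by -4.8 (-5.56 without brush 5). Of 13 matrix proteases and their inhibitors tested, none rose and 6 fell, among them the inhibitor Timp3 (-4.05 ± 0.41, edgeR adjusted p = 3.96e-08) and the membrane protease Mmp14 (-1.30 ± 0.35, edgeR adjusted p = 0.004).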

How the data were processed

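The counts are the authors' deposited table of unnormalized read counts per gene symbol for 18 libraries. The expected counts and TPM are the authors' deposited RSEM values per Ensembl gene and library, of which 47224 of 47729 IDs matched a symbol. The submitters' processing notes name STAR 2.4.2a, Picard 1.1073, RSEM 1.2.21, featureCounts, DESeq2 and the build mm10, with no role or order. Of the annotation used and of strandedness in counting, nothing is given in the sources used here. Counts of a gene and of a gene overlapping it on the other strand may therefore not be told apart.

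From the counts, edgeR 4.0.16 in R 4.3.3 was run with TMM scaling, a filter on low counts by group and a quasi-likelihood fit of all 18 libraries, with 3 contrasts that share libraries. P-values were adjusted by Benjamini-Hochberg over the 13418 genes that passed (12909 did not), and a gene was called at an adjusted p below 0.05. Gene positions are from GENCODE vM21 (GRCm38), and promoter sequences from RefSeq. No 2 libraries of a group agreed within sampling noise: chi-square over degrees of freedom was at least 6.11 for every such pair. Intervals and the floor of 3 counts cover counting error only. The procedure was tested on simulated data with known changes.

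The members and gene lists were chosen with earlier results of these data known. Genes were named by rule: called members with a mean of at least 5 CPM (all that rose, up to 6 per family that fell), the 3 highest by TPM per family and group, the leukocyte and platelet integrins, the 4 matrix genes, and up to 4 called genes of at least 10 CPM per other list. Others (for example Col9a1, Col9a2, Col2a1, Col4a3, Lamb1, Itgb8, Itga10, Itga2, Sox9, Tnc, Fermt3, Smoc2 and the markers) were named after their values were seen. The values of 1 laminin gene are not reported here. Alternatives were RLE scaling, other filters on low counts, DESeq2 1.42.0, limma-voom (limma 3.58.1), RSEM expected counts rounded to whole numbers, only the 2 groups compared, a replicate block, the fit without the 3 libraries that stand apart, and the fit without each library in turn.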

Additional observations from a re-analysis of the deposited data

Results flagged for a closer look

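In 82 groups of libraries with a level of 5 CPM or more, 9 held a library whose gap to its nearest neighbour was large for the range of its group. Chance flags about 1 in 20 groups that are not chosen by their values. These groups were chosen by their values: a group entered on a level of 5 CPM, which in some was reached by the outlying library alone, so that rate does not hold for the 9. What lies behind these values was not tested.

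The library EpCAM 2 carried 3 of them: Col10a1 at 19.5 CPM, with 1.15 CPM in the next EpCAM+ library, Col2a1 at 15.9 CPM, with 0 in the others, and Col9a3 at 5.1 CPM, with 1.21 CPM in the next. Abi3bp was at 1910 CPM in EpCAM 5, with 408 CPM in the next EpCAM+ library, and Col3a1 was at 10.4 CPM in EpCAM 3, with 0.926 CPM in the next.

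Among brush libraries, brush 4 had the highest Col10a1, at 5.66 CPM with 2.03 CPM in the next, and the lowest Lamc1, also at 5.66 CPM, with 12.6 CPM in the next. Each of these brush 4 values rests on 3 counts. Brush 7 had 12.6 CPM of Lamb1, with 3.77 CPM in the next. Among CD45+ libraries, CD45 3 had 25 CPM of Dcn, with 6.6 CPM in the next.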

How the results depend on the processing

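Of the 51 genes tested between brush and EpCAM+ cells, 8 were called higher and 20 lower; leaving out 1 library gave 8 to 9 higher and 19 to 22 lower, and the other alternatives 5 to 9 higher and 15 to 25 lower. The 5 came from the fit of only the 2 groups compared, in which Col22a1, Itgae and Itgb2 did not pass the filter on low counts. These genes kept their call in the 27 alternatives that gave them a value. In each comparison 39 genes were followed. Under every alternative that gave them a value, 36 kept their side of the threshold between brush and EpCAM+ cells. Between brush and CD45+ cells 30 did, and between EpCAM+ and CD45+ cells 32 did. Lamb3, brush over CD45+ cells, reversed to -2.50 with RSEM expected counts, against 0.71 with the count table; the cause was not tested. Against CD45+ cells, leaving out 1 library gave 13 to 16 higher and 14 to 17 lower in brush cells, and 18 to 24 higher and 11 to 14 lower in EpCAM+ cells. Replicate numbers were not taken as pairs, since the labels do not say what they mark and not every same-numbered pair correlated over 0.1: brush and EpCAM+ libraries ran from -0.069 to 0.235 (4 of 7 over 0.1, 2 of 7 best with their own number), brush and CD45+ libraries from -0.198 to 0.101, and EpCAM+ and CD45+ libraries from -0.18 to 0.263. With the replicate block, 8 genes were called higher and 21 lower between brush and EpCAM+ cells, Itga2b among the lower (-2.50, edgeR adjusted p = 0.0319), and Itgb7 was not called between brush and CD45+ cells (0.81, edgeR adjusted p = 0.133). The brush level of Itgb2 rests on 39 counts over all libraries of that group.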
